A study of Mus musculus with 12 samples.

Results

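After sciatic nerve injury, 160 transcripts stood at least 3-fold higher in RNA pulled down with the ribosomes of sensory neurons, while their level in ganglion input RNA stood between 0.67 and 1.5 times the uninjured one. These 160 members were chosen by those measured ratios, out of 101744 listed transcripts. The rule summed the 3 samples of each group, added 1 count, and scaled to 1000000 counts of the group's total (CPM). It also asked for at least 20 summed counts in injured immunoprecipitate (IP) and in both input groups, and left out 1 transcript ID by name. The direction in IP and the flatness in input are therefore how the members were found, and no test of either is given.

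The series measured dorsal root ganglia of mice with the genotype RPL22HA+/+;Advillin-Cre+, with and without injury of the sciatic nerve. All 12 samples carry this genotype, so no group lacks the tag or the Cre. IP and input were each taken from injured and uninjured ganglia, which makes 4 groups of 3 samples. Input is labelled as total RNA, yet its extraction text is that of the pulldown, so how input RNA was made is uncertain. The sources used here do not give the time after injury, the age of the mice, how many there were or whether they were pooled.

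RiboTag mice carry a ribosomal protein of the large subunit, Rpl22, that gains an HA epitope where Cre is active. Advillin is expressed in peripheral sensory neurons, so an HA pulldown from the ganglion is used to recover the messages that these neurons translate, while input RNA also comes from satellite glia, Schwann cells, vessels and immune cells. After a peripheral axon is cut, sensory neurons change both transcription and translation. In bulk samples such as these, fewer cells of a type and less RNA per cell cannot be told apart.

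The table lists Ensembl transcript IDs and no gene names, and 0 of the IDs matched the gene tables used here. Members are therefore described by level, ratio and spread, 2 of them by ID, and neither their functions, pathways or sequences nor the cell type markers of the ganglion were analysed here. The summed totals were 571960 and 636012 estimated counts in injured and uninjured IP and 4754071 and 5056160 in injured and uninjured input, and the totals of the 3 samples of a group lay within 0.449% of their mean. Such near-equal totals are why the 3 samples were counted as 1, although their spread exceeded counting noise for a part of the transcripts (edgeR's common biological coefficient of variation was 0.285 in IP and 0.296 in input). Whether they are 1 library is not settled, and the labels do not say whether they came from separate animals. A transcript at 20 counts in injured IP stands at 35.0 CPM, against 4.21 CPM in injured input.

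Of the 3505 transcripts with enough counts, 391 (11.2%) had an IP ratio of 3 or more. Input was flat for 160 of these 391, above 1.5-fold for 205 and below 0.67-fold for 26. Among all 3505, input was flat for 70.4%, above 1.5-fold for 14.9% and below 0.67-fold for 14.7%. Read from the flat side, 6.49% of 2466 transcripts with flat input and enough counts were members. The mirror rule, with IP at least 3-fold lower after injury, found 83 of 2456 (3.38%). With no condition on the other fraction, 968 transcripts (18.6% of 5202) were at least 2-fold higher after injury in IP, and 1251 (11.3% of 11116) in input.

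**Figure D1:**
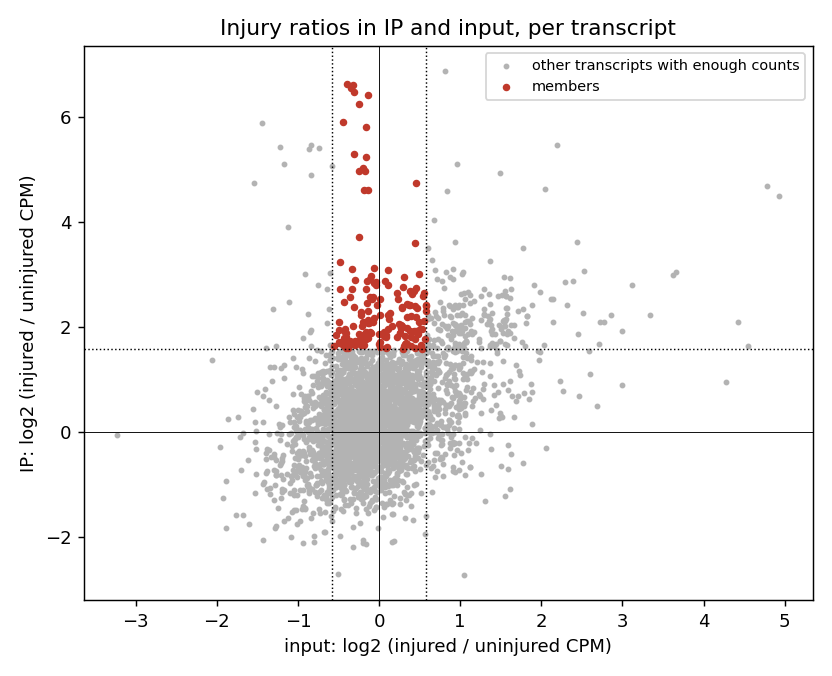
Each point is 1 of the 3505 transcripts with enough counts; the x axis is the log2 ratio of injured to uninjured CPM in input and the y axis the same ratio in IP, with the rule's limits dotted. The 160 members (red) fill the box above an IP ratio of 3 by definition, and 205 transcripts past the same IP limit lie to the right of it.

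The members' IP ratio had a median of 4.29 with quartiles of 3.53 and 6.32, 70 members were under 4 and 18 were at 10 or more. The 3 members nearest above the limit had ratios of 3.002, 3.01 and 3.04, and the 3 transcripts nearest below it all had 2.97. The pair on either side of the limit held 26 against 9 counts and 39 against 14 counts in injured and uninjured IP. The member at 3.04 held 40 against 14 counts, so the limit can separate transcripts that differ by very few counts.

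The input ratio of the members had a median of 0.976 and ran from 0.681 to 1.496, with 83 below 1 and 77 above. Its 95% counting interval, which covers counting error only, stayed inside 0.67 to 1.5 for 81 of 160. It lay wholly above 1 for 35 members, wholly below 1 for 49, and held 1 for 76. The same interval counts were not made for other transcripts, so they are not read as particular to the members. The 3 injured input samples lay below all uninjured ones for 38 members (23.8%) and above all of them for 29 (18.1%), where the shares over all 3505 transcripts were 28% and 17.7%. Flat thus means a change within 1.5-fold, and not that the input level was the same.

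Summed over all members, the injured IP samples all lay above the uninjured ones. The members took up 0.633%, 0.627% and 0.631% of the counts in the uninjured IP samples, and 3.05%, 3.16% and 3.07% in the injured ones. In input they took up 8.999%, 8.95% and 8.94% without injury, and 8.38%, 8.38% and 8.44% with it. The IP sum was 4.91-fold higher after injury, and the input sum stood at 0.938 times the uninjured one. So the members made up a smaller part of the pulldown than of the input in both conditions, 14.2-fold smaller before injury and 2.72-fold smaller after it. With TMM factors, a scaling that assumes most transcripts keep their level, these became 39.2-fold and 8.52-fold.

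A single transcript supplied 26.4% of the members' counts in injured IP, and the highest 10 supplied 51.5%. ENSMUST00000141384.2 held 251, 246 and 230 counts in the uninjured IP samples and 1586, 1573 and 1508 in the injured ones. In input it held 199, 199 and 206 counts without injury and 194, 185 and 164 with it. The IP groups were far apart, the 3 samples of each group differed by no more than counting noise, and the lowest input sample was an injured one. Its IP ratio was 7.13 (95% counting interval 6.60 to 7.73) and its input ratio 0.956 (0.850 to 1.08). It was 9.57-fold higher in IP than in input without injury and 71.3-fold higher with it, and among the members at 100 CPM or more in input it was the only one at least 2-fold above input in either condition.

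The member ranked 2 in injured IP was the most abundant of all members in input, and its balance was the opposite. It held 64, 55 and 62 counts in uninjured IP and 208, 183 and 212 in injured IP. Its input samples held 16289, 16264 and 16169 counts without injury and 14093, 14104 and 14521 with it, so the injured input samples were all lower. The IP ratio was 3.69 (3.13 to 4.40) and the input ratio 0.932 (0.920 to 0.945). Its IP level was 33.7-fold below input without injury and 8.51-fold below with it.

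The members ranked 3, 4 and 5 in injured IP show both kinds. Rank 3 held 44.8, 55.6 and 50.9 counts in uninjured IP and 202, 199 and 187 in injured IP, and 79.7, 76.8 and 77.6 against 84.4, 111 and 129 in input. Its input ratio of 1.47 (1.24 to 1.75) stood just inside the limit, and all its injured input samples were above the uninjured ones. Rank 4 held 59.8, 75.9 and 72.5 against 191, 171 and 215 counts in IP, with 17716 and 17848 summed input counts before and after injury. Rank 5 held 55.8, 59.7 and 80.6 against 192, 175 and 193 counts in IP, with 33405 and 26858 in input. Ranks 4 and 5 stayed 3.71-fold and 5.76-fold below input in injured IP, and rank 3 was 15.1-fold above it.

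The highest ratios rested on few samples. Of the 18 members with an IP ratio of 10 or more, 13 had at least 1 injured IP sample at 0, and the IP samples of 5 were free of overlap. The member with the highest ratio, ENSMUST00000004072.10, held 0 counts in all 3 uninjured IP samples and 41.9, 46.0 and 0 in the injured ones. Its input samples held 886, 832 and 788 counts without injury and 609, 618 and 572 with it, so the injured ones were all lower. The input ratio was 0.763 (0.718 to 0.811). Its IP level was 32.6-fold higher when the 0 is set to a floor of 3 counts over the group, and its counting interval started at 26.0, which does not cover the 0 in injured sample 3. The member ranked 3 by ratio held 83 counts in 1 injured IP sample and 0 in the other 2. The member ranked 2 differed from these, with 0 in each uninjured IP sample and 36.6, 31.1 and 18.4 counts in the injured ones, beside 7430 and 5593 summed counts in uninjured and injured input.

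In all, 16 members had 0 counts in uninjured IP and 13 had 1 to 3. With uninjured sums under 3 counts raised to the floor of 3 the median IP ratio of the 160 was 4.70, and over the 144 members with a count it was 4.36 with no count added. The counting interval of the IP ratio, which covers counting error only, lay above 2 for 110 members and above 3 for 49. The rule used this ratio, the same counts were not made for other transcripts, and nothing is read from them.

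The injured IP samples all lay above the uninjured ones for 122 of 160 members (76.3%), against 29.9% of the 3505 transcripts; the rule used this contrast, and nothing is read from the gap. For 31 of these members (19.4% of the 160) all injured input samples were lower, for 25 (15.6%) all were higher, and for 66 (41.3%) the input groups overlapped, beside 7.45%, 10.9% and 11.6% of the 3505. Of the other 38 members, 27 had an injured IP sample at 0. The 3 samples of a group differed by more than counting noise (chi-square p of 0.01 or less) in at least 1 of the 4 groups for 64 members, leaving 96 of 160 (60%) whose samples agreed in all groups, against 1923 of 2306 (83.4%) of the other transcripts with flat input. In IP, 20.6% of members differed in uninjured and 20.6% in injured samples, beside 5.90% and 5.68% of the others. In input the shares were 16.3% and 13.1% of members, beside 8.11% and 6.55% of the others. An injured IP sample at 0 was found for 16.9% of members and 3.38% of the others. The rule used the sums of these counts, and nothing is read from the gaps in agreement.

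**Figure D2:**
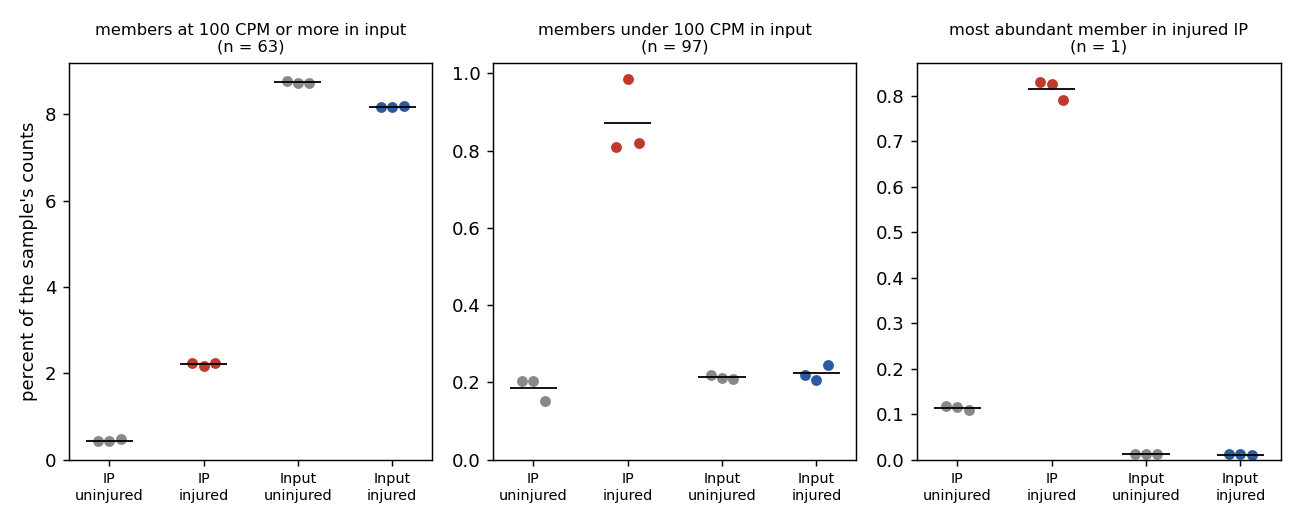
The y axis is the percent of a sample's counts held by a set of members, with 1 point for each of the 12 samples and a line at the group mean. For the 63 members at 100 CPM or more in input (left) the injured IP samples stay below every input sample, for the 97 others (middle) they lie above it, and the most abundant member in injured IP (right) is above input in both conditions.

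Members fell into 2 ranges of input level, split here at a mean of 100 CPM, a value chosen after the levels were seen. The 63 members above it took 0.429%, 0.424% and 0.479% of the uninjured IP samples and 2.24%, 2.17% and 2.25% of the injured ones, against 8.73% to 8.78% and 8.17% to 8.20% of the input samples. All injured IP samples were thus higher than the uninjured ones and lower than any input sample. Their sum stood 19.7-fold below input before injury and 3.68-fold below after it. Separately, 62 of the 63 were at least 2-fold below input without injury and 51 with it. The same count was not made for other flat transcripts of this input level. With TMM factors the sum stood 54.4-fold and 11.6-fold below, and 62 of the 63 were at least 2-fold below input in either condition.

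The 97 members under 100 CPM took 0.204%, 0.203% and 0.151% of the uninjured IP samples and 0.810%, 0.985% and 0.820% of the injured ones. In input they took 0.219%, 0.212% and 0.209% without injury and 0.220%, 0.207% and 0.246% with it, so the input groups overlapped. Their sum in IP stood at 0.873 times the input level without injury and 3.88 times with it, and with TMM factors at 0.317 and 1.24 times. The count minimum sets part of this: 51 of the 160 members had so low an input level that 20 counts in injured IP already put them at least 2-fold above it.

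Over all members, 91 stood below their input level by 2-fold or more without injury and 52 with it, beside 17.9% and 14% of the 3505 transcripts. Another 20 and 71 stood above it by 2-fold or more, beside 62% and 68.8%. The rule used these sums and favours a low uninjured IP level, with a median of 8.47 summed counts against 48 for other flat transcripts. Nothing is read from these gaps. With TMM factors the counts below input were 124 and 80, and those above it 3 and 30. A level below input without injury and above it with injury was found for 40 members (25%), beside 99 of 2306 (4.29%) other flat transcripts. The rule's 3-fold rise in IP with flat input favours such a crossing, and the crossing depends on the scaling. The members' median log2 ratio of IP to input was -1.88 without and 0.67 with injury under library totals, but with TMM factors it was -3.34 and -0.98, below input in both conditions.

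**Figure D3:**
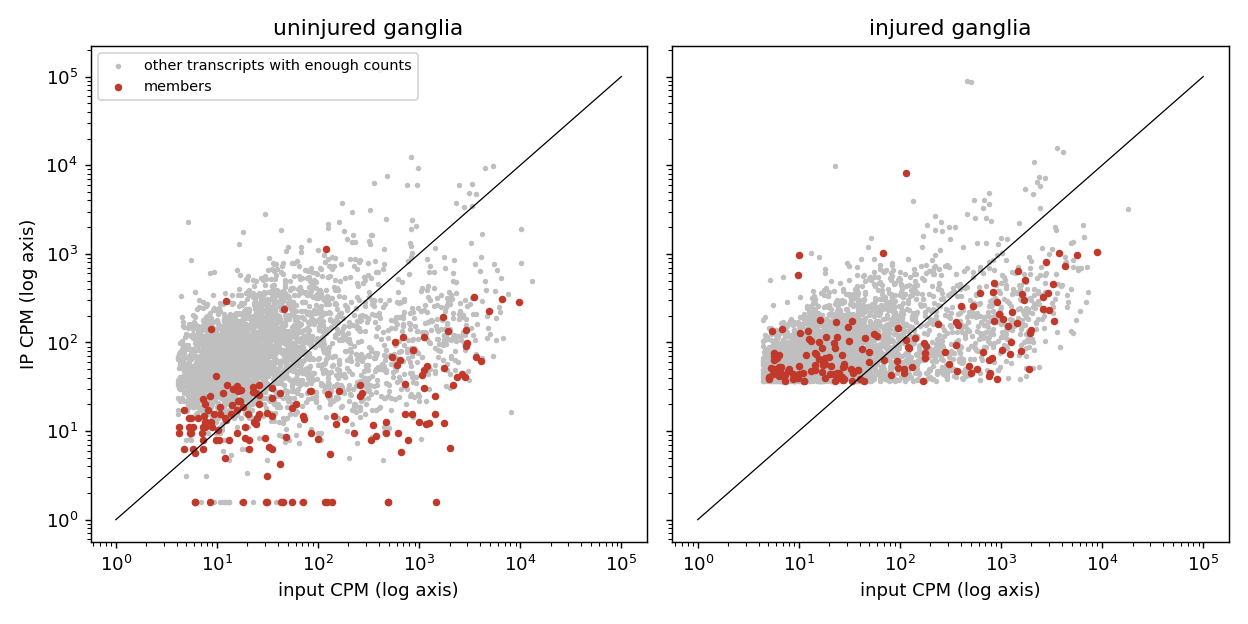
IP level against input level in CPM on log axes, for uninjured (left) and injured (right) ganglia; members are red, other transcripts with enough counts grey, and the line marks equal levels. The row of points at the bottom left is transcripts with 0 counts in uninjured IP. The sharp lower edge on the right is the minimum of 20 counts. Most members of high input level lie below the line on both sides.

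Members were a larger share of flat transcripts where the input level was high. They were 31 of the 494 under 10 CPM in input with 20 counts in injured IP (6.28%), 66 of 1476 at 10 to 100 CPM (4.47%), 36 of 338 at 100 to 1000 CPM (10.7%) and 27 of 158 at 1000 CPM or more (17.1%). All 27 of the last range were still at least 2-fold below input in injured IP. The 163 flat transcripts of that range, members included, summed to 0.188 times their input level without injury and 0.333 times with it. Across the 160 members the IP ratio and the input level, both on the log2 scale, correlated with a Pearson r of -0.01 (Spearman rho 0.02); the points share library totals, and the ratio is cut at 3.

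The non-members with flat input in the highest input range also took a larger share of the pulldown after injury. Leaving out all members, the 136 other flat transcripts at 1000 CPM or more summed to 79718, 78032 and 78529 CPM in the uninjured IP samples and 114773, 116504 and 116741 CPM in the injured ones. The injured samples were all higher, 1.47-fold over the sums and 1.36-fold with TMM factors. The sums of non-members in the other ranges were lower after injury, at 0.902-fold under 10 CPM, 0.915-fold at 10 to 100 CPM and 0.782-fold at 100 to 1000 CPM. The last of these holds the 2 transcripts that are the most abundant in uninjured IP, and was 0.895-fold without them. Taken per transcript, the median IP ratio was 0.981, 1.03, 1.32 and 1.81 from the lowest input range to the highest. These medians cover flat transcripts with 20 counts over both IP groups, members included. At 100 to 1000 CPM the sum thus fell while the median transcript rose. The other flat transcripts of the highest input range, as a sum, therefore moved in the same direction as the 27 members within it. The median IP ratio of these 27 members was 3.73. The part of this movement in their ratios was not tested.

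**Figure D4:**
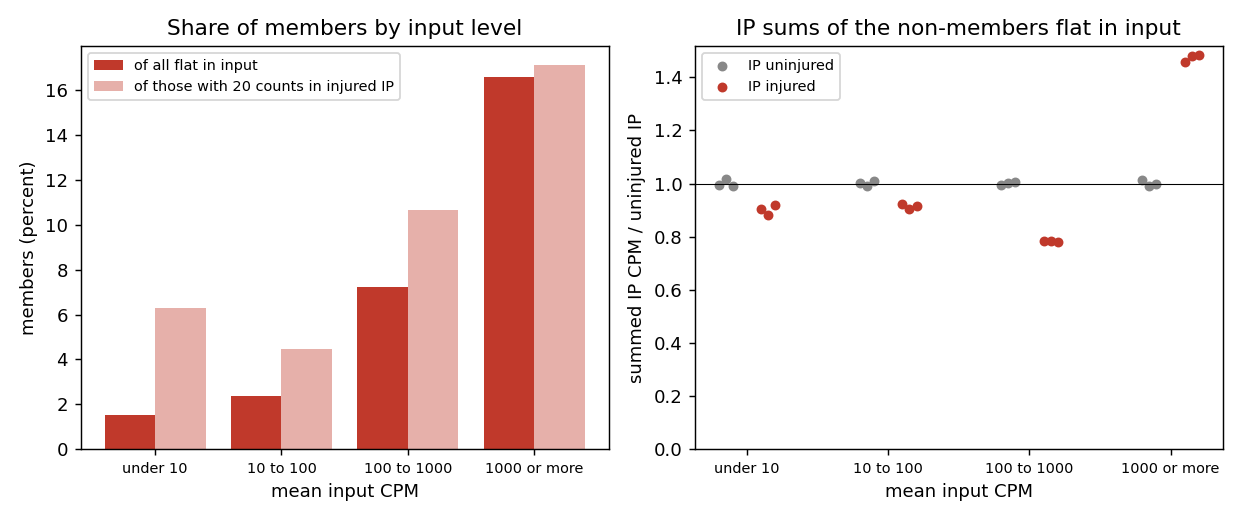
Left, the percent of transcripts with flat input that are members, by mean input CPM, over all of them and over those with 20 counts in injured IP. Right, the summed IP CPM of the non-members in each range divided by the uninjured group's value, with 1 point per IP sample; the injured samples lie near 1.47 in the highest range and below 1 in the other 3.

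A smaller set of 33 members met 4 further conditions, set after the values were seen: an IP counting interval above 2, an input interval inside 0.67 to 1.5, IP samples that do not overlap, and agreement within counting noise in all 4 groups. Their IP ratios ran from 3.01 to 96.9 with a median of 4.24. Their input levels ran from 20.3 to 9311 CPM with a median of 1130, and 23 of them were at 100 CPM or more. The most abundant member in injured IP, with an IP ratio of 7.13, is among them. The conditions on IP reuse the contrast of the rule. How many other transcripts would meet such conditions was not counted. With 1 sample number left out of every group, 93 to 96 of the 160 members kept 20 counts where the rule asks for them. Of these, 76 to 78 met both ratio limits. An IP ratio of at least 2 held for 149 to 155 of the 160. The samples left in are among those the rule summed to choose the members, so these counts are no separate check.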

How the data were processed

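RNA of mouse dorsal root ganglia was sequenced as nanopore PCR-cDNA libraries, per the labels' protocols. The deposited table holds estimated counts per Ensembl transcript, not scaled. Per the submitters' processing notes, minimap2, Salmon and the builds GRCm39 and mm39 were used, with no stated role, version or setting. The members and lists were chosen with earlier results of these data known.

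Columns were matched to samples by library name. Counts were summed over the 3 samples of a group, which count as 1 sample, and divided by the group total after 1 count was added. Ratios of 2 groups carry exact conditional 95% intervals from rounded counts, which hold counting error alone, as no removal of PCR copies is stated. For folds against a floor, uninjured IP sums under 3 counts were set to 3. Agreement of 3 samples was a chi-square test at 0.01. No test between conditions is given for the members. As alternatives, edgeR 4.0.16 and DESeq2 1.42.0 were fitted to rounded counts over all transcripts passing filterByExpr, with Benjamini-Hochberg adjustment. A check of these fits used simulated counts of lower spread than the data, and nothing is read from it. Other alternatives were TMM and DESeq2 scaling, 0.5 added counts, other limits, and leaving out a sample number. Because no file pairs IDs with genes, IDs are printed for 2 members only (highest ratio, highest injured IP count), as the naming rule set for that case, and the gene lists were not used. Python 3.11.15, scipy 1.17.1 and R 4.3.3 were used.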

Additional observations from a re-analysis of the deposited data

Results flagged for a closer look

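For 31 of the 160 members the injured samples lay above all uninjured ones in IP and below all uninjured ones in input, so the 2 fractions moved in opposite directions in every sample. The members were chosen for a rise in IP, the input changes are within 1.5-fold, and the difference was not tested. Among the 122 members whose IP samples did not overlap, these 31 made up 25.4%. Among all 1048 transcripts with enough counts whose IP samples did not overlap in that direction, the same pattern made up 24.9%, so the share among members was near the background.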

How the results depend on the processing

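The number of members followed the limits: 427 with an IP ratio of at least 2, 90 with at least 4, 95 with an input range narrowed at both ends, 56 with at least 50 counts and 1005 with at least 1. It was 95 where every same-numbered pair of IP samples differed 2-fold, and 96 where samples agreed in all groups. Other scalings and 0.5 added counts gave 136 to 167, with 131 to 160 of the 160 kept. Leaving out a sample number gave 110 to 119, in part because the minimum of 20 then falls on fewer samples. Of these, 76 to 78 were among the 160 members.

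The members' median log2 ratio for injury in IP, 2.10, was 1.99 with TMM factors, 2.00 with DESeq2 size factors, 2.16 with 0.5 added counts and 1.98 with totals that leave out the 2 most abundant transcripts of uninjured IP, an alternative added after seeing the data. It was 2.06 to 2.15 with a sample number left out. TMM moved the median over the 2826 transcripts with 20 counts in all groups from 0.05 to -0.06 in IP and from -0.12 to -0.05 in input. The members' input median of -0.04 changed sign, to 0.036 and 0.050, with TMM factors and DESeq2 size factors, by the shift of the scaling itself.

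For IP against input without injury, -1.88 became -3.34 with TMM, -3.29 with DESeq2 size factors, -2.13 with 0.5 added counts, -1.48 with the reduced totals, and -2.34 to -1.90 with a sample number left out. With injury, 0.67 became -0.98, -0.92 and 0.95 with TMM, DESeq2 size factors and reduced totals, and 0.53 to 0.93 with a sample number left out.

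Over all transcripts, the 968 that were 2-fold higher in IP became 6558 with no count minimum and 394 with at least 50 counts. Taking samples as replicates, edgeR called 492 higher, DESeq2 425, and edgeR with the replicate block 300, of 3135 tested. These calls take an adjusted p under 0.05 and no fold limit, so they are another measure than the 2-fold counts. The 1251 of input became 7376 and 692 with those minimums. Such calls in input numbered 1101 with edgeR, 1077 with DESeq2 and 814 with the replicate block, of 8054 tested. The block is not a pairing in the labels: same-numbered injured and uninjured samples deviated together with r of -0.02, -0.07 and 0.22 in IP and 0.11, -0.06 and -0.03 in input, within the -0.23 to 0.24 and -0.13 to 0.15 of other numbers. Depth limits the IP ratios, since 81 members had under 40 counts in injured IP.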
